A study of Homo sapiens with 6 samples.

Results

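The 10 stress effector genes described here were measured in SW480, an established human colorectal adenocarcinoma cell line. They are DDIT4, SESN1, SESN2, SESN3 and TRIB3, which act on the growth kinase complex mTORC1 or on its upstream kinase Akt, CHAC1, which breaks down glutathione, DDIT3 (CHOP) and PPP1R15A (GADD34), which act on transcription and translation under stress, and the stress-induced regulators NUPR1 and ATF3. Members were the rows of the deposited table whose Ensembl identifier maps to one of these symbols, and all 10 were found among 59192 features. They were named with results of this comparison already known, so their differences are given as descriptions, and the calls of the fit over all features are printed for them as counts only. RNA libraries of SW480-45, the HPSE-knockdown line (n = 3), were compared with those of SW480-NC, the control line (n = 3). Both lines carry a stably integrated Cas9 selected with puromycin and a lentiviral guide RNA vector with EGFP. The guide of the knockdown line targets HPSE, the gene of the heparan sulfate cleaving enzyme heparanase, and the other line carries a control guide. SW480-45 is the name in the labels, while in the paper RNA sequencing is described for a knockdown line called SW480-KD1, and both names were read as the same line. Each condition is 1 stably infected line, and the sources do not say whether it is a clone, so loss of HPSE, the guide and the history of the line cannot be told apart. The replicates came from independent experiments, each from cells in culture without any added stress agent named in the sources.

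In the integrated stress response, kinases that sense unfolded protein, amino acid shortage, heme shortage or double-stranded RNA phosphorylate the initiation factor eIF2, which lowers general translation and favors translation of the transcription factor ATF4. ATF4 and its target CHOP then induce genes that restore amino acid supply, restrain mTORC1 or, when stress lasts, promote cell death. TRIB3 feeds back on ATF4 and CHOP, and PPP1R15A brings protein phosphatase 1 to eIF2 and reverses its phosphorylation. DDIT4 and the sestrins also respond to hypoxia, glucocorticoids or FOXO factors, depending on the gene. Because much of this control is on translation and protein stability, RNA levels describe only part of it.

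RefSeq promoter windows on GRCh38.p14, from 250 bases before to 50 after each start, were present for 9 of the 10 genes, with 15 starts in all, and NUPR1 had no entry. They were searched on both strands for 4 short motifs. The C/EBP-ATF composite element, to which ATF4 and CHOP dimers bind, was searched as TGATGNAA and is held by 3.62% of the 35116 windows in the table. The cAMP response element TGACGTCA is held by 1.85%, the AP-1 site TGANTCA by 7.71% and the core of the hypoxia response element, ACGTG, by 21.4%. Of the 9 genes, 5 held a match, each of a single motif. The other 4 with an entry, SESN1, SESN2, SESN3 and TRIB3, held none of these letters in the window. The lines below show the match in capitals with its flanks, on the strand of the gene, for the members with a bZIP factor motif, because ATF4, CHOP and ATF3 are themselves bZIP factors.
CHAC1, composite element read on the opposite strand, 209 bases before the start, chr15:40953236-40953295, plus strand: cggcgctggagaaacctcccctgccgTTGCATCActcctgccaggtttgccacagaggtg
ATF3, composite element, 191 bases before the upstream one of 2 starts, chr1:212565190-212565249, plus strand: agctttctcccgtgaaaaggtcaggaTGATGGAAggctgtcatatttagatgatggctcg
PPP1R15A, cAMP response element, 58 bases before the start, chr19:48872337-48872396, plus strand: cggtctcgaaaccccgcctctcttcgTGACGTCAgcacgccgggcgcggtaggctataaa
DDIT3, AP-1 site, 241 bases before one start and 238 before the other, chr12:57520723-57520764, minus strand: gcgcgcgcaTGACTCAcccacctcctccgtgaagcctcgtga
For DDIT4, which had one of the largest differences of the 10, the whole window is given, with the single ACGTG in capitals, 125 bases before the start.
DDIT4, chr10:72273674-72273973, plus strand: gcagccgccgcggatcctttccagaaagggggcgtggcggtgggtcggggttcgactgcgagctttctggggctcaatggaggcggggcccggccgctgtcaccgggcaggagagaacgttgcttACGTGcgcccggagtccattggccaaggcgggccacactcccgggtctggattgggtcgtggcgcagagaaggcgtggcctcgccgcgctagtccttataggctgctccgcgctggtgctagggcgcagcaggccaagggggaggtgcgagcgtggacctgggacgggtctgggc
A match describes the letters only and is not a measured binding site.

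The libraries held 33221323 to 39802365 reads on the features, recovered from the normalized counts as described in the processing. HPSE itself was measured at 136, 172 and 146 normalized counts in SW480-45 and at 269.9, 295 and 246 in SW480-NC. The log2 difference was −0.83 (standard error 0.14, adjusted p = 0.0547 from limma), so that 56.1% of the control RNA level was left. RNA does not measure how much protein is left after Cas9 editing, and the paper examined the knockdown by western blot. Markers of colorectal epithelium were looked up, which cannot tell SW480 from other colorectal lines. EPCAM, KRT8, KRT19, KRT20, VIL1 and LGALS4 were at 4452 or more normalized counts in every library, whereas the intestinal factor CDX2 lay between 19.0 and 40.3. Of the markers of blood cells, endothelium and fibroblasts, HBB, CDH5 and COL1A2 were at or near 0, with at most 2.90 normalized counts. PECAM1 reached 30.6, VWF 19.0, PDGFRB 49.9 and COL1A1 359. Only HBB of the 4 blood cell markers was measured. The summed level of the 3 measured fibroblast markers of 5 was 276 to 386 in SW480-45 and 229 to 264 in SW480-NC, and that of the 3 endothelial markers of 3 was 28.0 to 43.2 and 12.6 to 26.5. The 7 measured epithelial markers of 9 summed to 123150 to 132077 in SW480-45 and to 141385 to 150921 in SW480-NC. The part of these lists in the results was not tested.

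All 10 genes had a higher mean in SW480-45 than in SW480-NC on the log2 scale, by a median of 0.36, against a median of −0.0048 over the 21703 features tested, of which 49.3% were higher. In 7 of the 10 every library of SW480-45 lay above every library of SW480-NC, which was so for 11.4% of the features, and 23.4% did not overlap in either direction. With limma 2 of the 10 passed an adjusted p of 0.05, where 0.332% of all features tested were called higher and 0.802% in either direction. At an unadjusted p under 0.05 it was 6 of the 10, against 8.1%. With edgeR on the recovered reads 2 of the 10 passed the adjusted threshold, against 0.272% of features higher and 0.627% in either direction, and 7 passed the unadjusted one, against 8.23% higher and 7.67% lower. With DESeq2 5 of the 10 passed, against 2.51% of features higher, 2.23% lower and 4.74% in either direction. The DESeq2 shares are of the 16198 features to which it gave an adjusted p. Since the genes were chosen on this comparison, nothing is read from these shares. Converted back from the log2 scale, the differences ran from 2.20-fold for NUPR1 down to 1.05-fold for CHAC1. In bulk RNA, more RNA of a gene per cell and more cells that hold this RNA cannot be told apart.

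**Figure D1:**
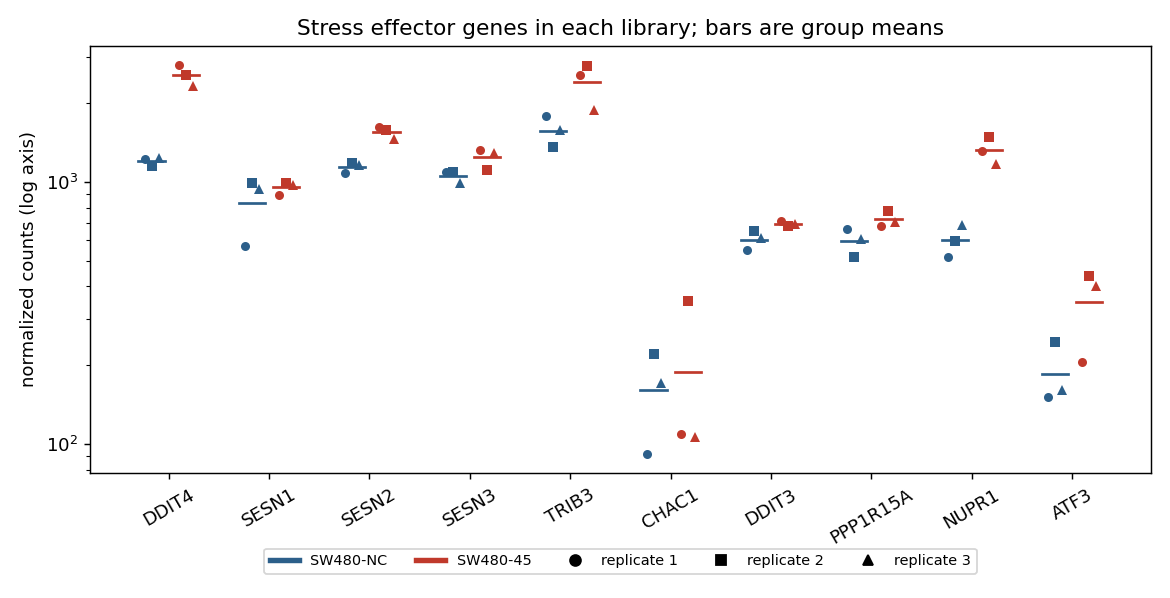
Normalized counts (log axis) of the 10 stress effector genes in each library, with SW480-NC in blue, SW480-45 in red, a symbol shape for each replicate and a bar for the group mean. DDIT4 and NUPR1 show the widest gap between the lines, and CHAC1 and ATF3 the widest spread within a line.

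DDIT4 (ENSG00000168209, also called REDD1), on the plus strand of chromosome 10 from 72273920 to 72276036 in GENCODE 29 on GRCh38, encodes a protein that restrains mTORC1 through the TSC1-TSC2 complex. The SW480-45 libraries held 2790.0, 2562 and 2323 normalized counts of it, against 1229, 1152 and 1232 in SW480-NC. Every SW480-45 library lay far above every SW480-NC library, and the SW480-NC libraries were nearly equal. The mean was 2558 ± 233 (SD, n = 3) against 1204 ± 45.3 (SD, n = 3), which is 2.12-fold, a log2 difference of 1.08 (standard error 0.09). With each library left out in turn it stayed between 1.02 and 1.15. The gene overlaps an antisense gene, DDIT4-AS1, over 847 exon bases, and that gene has no row of its own under an Ensembl identifier, so reads from the 2 strands may be counted together.

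NUPR1 (ENSG00000176046), on the minus strand of chromosome 16 from 28532708 to 28539174, encodes a small chromatin-associated protein that is induced by many stresses and lies downstream of ATF4. Its SW480-45 libraries had 1313, 1488 and 1168 normalized counts, and its SW480-NC libraries had 520, 596 and 686. The lowest SW480-45 library was well above the highest SW480-NC library. The mean was 1323 ± 160 (SD, n = 3) against 601 ± 83.2 (SD, n = 3), which is 2.20-fold, a log2 difference of 1.14 (standard error 0.14). It was the largest difference of the 10 and ranged from 1.04 to 1.24 when a library was left out.

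The sestrins are stress proteins that inhibit mTORC1 through GATOR2, and SESN2 also senses leucine. SESN2 (chromosome 1, 28259527 to 28282491), a known ATF4 target, had 1624, 1580 and 1466 normalized counts in SW480-45 and 1086, 1179 and 1166 in SW480-NC. The lines did not overlap and the replicates were tight, with the difference at 0.44 on the log2 scale (standard error 0.08), or 1.36-fold. Its spread within the lines, a pooled SD of 0.07 on the log2 scale, stood at percentile 8.65 of the features tested.

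SESN3 (chromosome 11, 95165513 to 95232541), a FOXO target, had 1326, 1108 and 1297 normalized counts in SW480-45 and 1094, 1088 and 991 in SW480-NC. The groups did not overlap, but the lowest SW480-45 library lay close to the highest SW480-NC library. Its log2 difference was 0.23 (standard error 0.10). SESN1 (chromosome 6, 108986437 to 109094819), which is also stress-responsive, had 895, 996 and 973 normalized counts in SW480-45 and 572, 991 and 939 in SW480-NC. Only SW480-NC replicate 1 was low, and the other SW480-NC libraries lay inside the SW480-45 range. The log2 difference of 0.23 (standard error 0.20) became −0.016 without SW480-NC replicate 1. Of the 3 sestrins, SESN2 had the largest difference and the smallest standard error.

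TRIB3 (chromosome 20, 362835 to 397559), a pseudokinase that binds Akt and ATF4 and is a target of ATF4 and CHOP, had 2572, 2772 and 1881 normalized counts in SW480-45 and 1785, 1357 and 1575 in SW480-NC. The groups did not overlap, although SW480-45 replicate 3 came close to SW480-NC replicate 1. The mean of 2408 ± 467 (SD, n = 3) against 1572 ± 214 (SD, n = 3) gave a log2 difference of 0.60 (standard error 0.16), which ranged from 0.49 without SW480-45 replicate 2 to 0.77 without SW480-45 replicate 3.

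DDIT3 (chromosome 12, 57516588 to 57521737), which encodes CHOP, had 713, 678 and 692 normalized counts in SW480-45 and 550.2, 649 and 610 in SW480-NC. PPP1R15A (chromosome 19, 48872392 to 48876057), which encodes the eIF2 phosphatase subunit GADD34, had 682, 778 and 702 against 660.0, 518 and 607. Both genes were higher in every SW480-45 library than in any SW480-NC library, by a small step. The log2 differences were 0.21 (standard error 0.10) for DDIT3 and 0.28 (standard error 0.12) for PPP1R15A. The exons of DDIT3 overlap those of MARS by 355 bases and of MBD6 by 58 bases on the other strand. On the same strand they overlap those of AC022506.1 by 105 bases. MBD6 was at a mean of 2926 normalized counts, and MARS and AC022506.1 had no row under an Ensembl identifier. Part of the DDIT3 value may therefore come from neighbors, and that part was not tested.

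ATF3 (chromosome 1, 212565334 to 212620777), a bZIP repressor induced early in many stresses, had 207, 440 and 401 normalized counts in SW480-45 and 152, 245 and 161 in SW480-NC. SW480-45 replicate 1 lay below SW480-NC replicate 2, so the lines overlapped although the mean was 349 ± 125 (SD, n = 3) against 186 ± 51.5 (SD, n = 3). The log2 difference was 0.86 (standard error 0.31), with a range of 0.66 without SW480-45 replicate 2 to 1.20 without SW480-45 replicate 1.

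CHAC1 (chromosome 15, 40952962 to 40956519), a γ-glutamylcyclotransferase that degrades glutathione and a known target of ATF4, had 110, 350.4 and 106 normalized counts in SW480-45 and 92.0, 221 and 172 in SW480-NC. SW480-45 replicate 2 was the highest of the 6 libraries, and the other two SW480-45 libraries lay below the median of SW480-NC. The log2 difference was 0.08 (standard error 0.50), which is smaller than its error, so no difference was detectable at this spread. It was −0.49 without SW480-45 replicate 2 and −0.28 without SW480-NC replicate 1. The lowest library held 88 reads, for which counting error alone is 10.7%, whereas the highest library exceeded the lowest 3.29 times within SW480-45. The pooled SD of CHAC1 on the log2 scale, 0.83, stood at percentile 93.1 of the features tested.

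**Figure D2:**
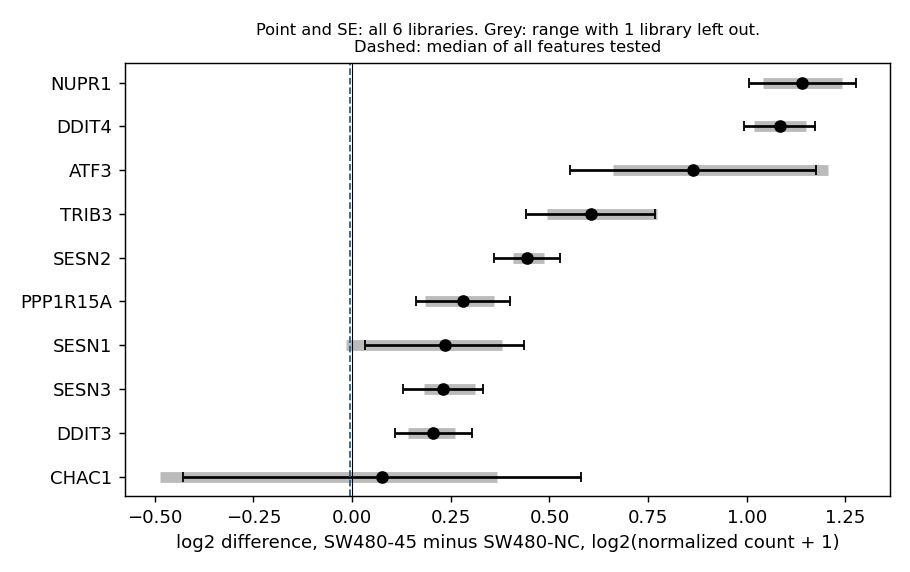
Log2 difference between SW480-45 and SW480-NC for each gene, with the standard error as a bar and the range over the fits that left out 1 library in grey; the dashed line is the median of all features tested. NUPR1 at 1.14 and DDIT4 at 1.08 lie farthest from 0, and only the grey ranges of SESN1 and CHAC1 cross it.

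The library with the highest value was not the same for all 10 genes. Some gaps between replicates were small, as for DDIT3 (713, 678 and 692 normalized counts in SW480-45), and the ranks were not tested. SW480-45 replicate 2 was the highest of the 6 libraries for 6 of the 10 genes and SW480-45 replicate 1 for the other 4. SW480-NC replicate 1 was the lowest library for 6 genes. Against the SW480-NC mean, the median of the 10 genes was 0.29, 0.65 and 0.28 on the log2 scale in SW480-45 replicates 1, 2 and 3 and −0.10, 0.04 and 0.03 in those of SW480-NC, while the median of all features tested lay between 0.0014 and 0.0092 in each. DDIT4, SESN2, SESN3 and DDIT3 were highest in SW480-45 replicate 1, and NUPR1, SESN1, TRIB3, CHAC1, PPP1R15A and ATF3 were highest in SW480-45 replicate 2. CHAC1 and ATF3 had the largest pooled SD of the 10, 0.83 and 0.50 on the log2 scale.

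**Figure D3:**
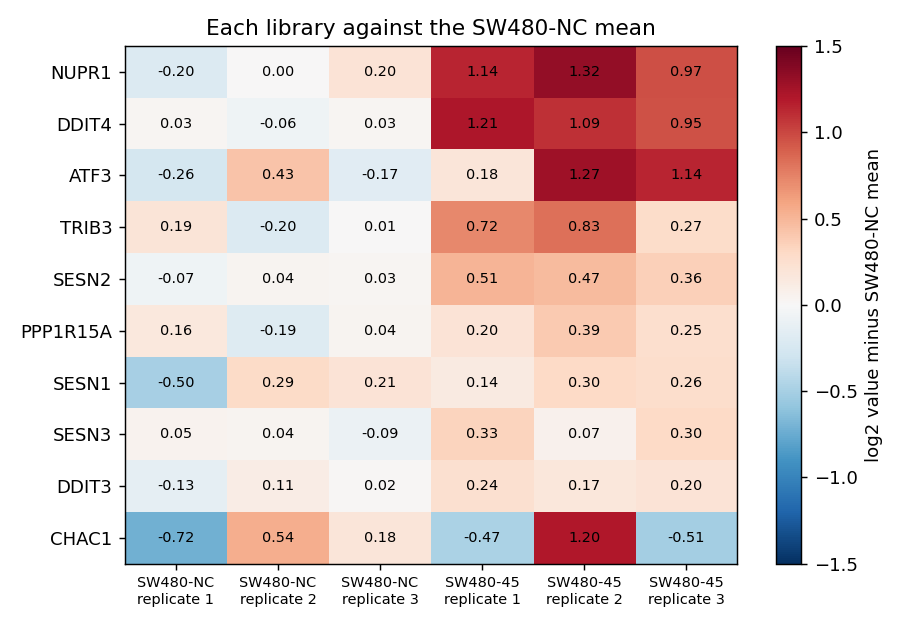
Each library's log2(normalized count + 1) minus the SW480-NC mean of the gene, with red above and blue below the control mean. The NUPR1 and DDIT4 rows are red in all 3 SW480-45 libraries, from 0.95 to 1.32, whereas of the SW480-45 libraries CHAC1 is red in replicate 2 (1.20) and blue in the other two.

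Levels were compared between genes per kilobase of the longest principal transcript. In SW480-NC, DDIT4 (689 normalized counts per kilobase), DDIT3 (641) and TRIB3 (629) were the most abundant and their libraries overlapped. SESN2 followed at 331, apart from its neighbors on both sides, then PPP1R15A (250.1) and SESN1 (238), which overlapped. SESN3 (111), NUPR1 (109), CHAC1 (104) and ATF3 (91.5) came last and overlapped. In SW480-45, DDIT4 reached 1464 normalized counts per kilobase, and its lowest library, at 1329, was above the highest TRIB3 library, at 1109. This order holds for these transcripts only, because the transcript that is used is not known from the table. DDIT4 and SESN2 have the same length for their principal and their shortest coding transcript, and the other 8 genes have a shorter coding transcript. On that one the level in SW480-NC would be 1792 per kilobase for TRIB3, 1743 for SESN3, 1092 for NUPR1 and 936 for DDIT3, each above DDIT4.

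Genes that act around these effectors were taken from 12 lists of 180 genes, of which 142 had a row under their own Ensembl identifier and 140 passed the filter on low values (an average of 10 or more normalized counts). The 38 without a row were not analysed here, among them EIF2AK3 (PERK) and EIF2AK1, which are the eIF2 kinases for unfolded protein and heme shortage, the regulators MDM2, GCLC, HIF1A, NR3C1 and FOXO1, and the paralogues DDIT4L and NUPR2. Over all lists 4 genes rose and 2 fell at an adjusted p under 0.05 from limma, against 0.332% and 0.47% of all features tested, and the median log2 difference was 0.05. The 4 that rose were ASNS, PSAT1, DEPTOR and EGR1, and the 2 that fell were ATF5 and TXNIP. The same fit called 25 of the 140 higher and 15 lower at an unadjusted p under 0.05, where the shares of all features were 8.1% and 8.15%. The lists were chosen with earlier results of these data known, and these shares stand beside the limma counts of each list below.

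**Figure D4:**
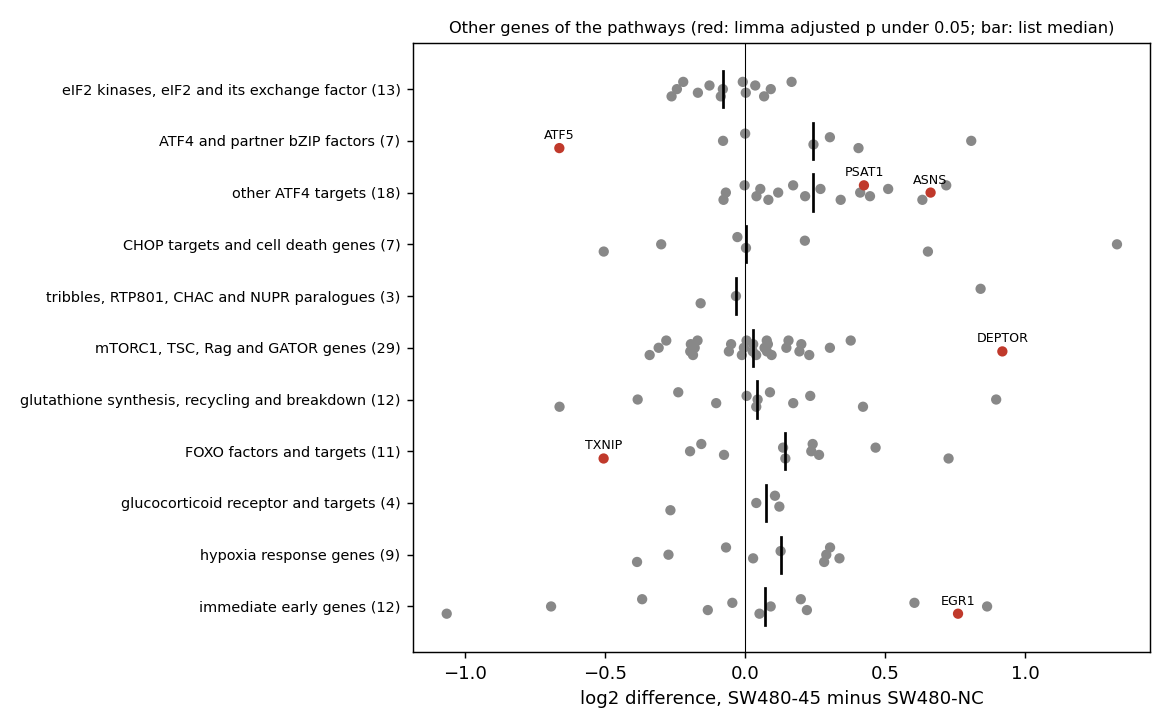
Log2 differences between SW480-45 and SW480-NC of the tested genes in the lists described here, with the number tested in brackets, a bar at each list median and red points for genes at an adjusted p under 0.05 from limma. Of the named red points, ASNS, PSAT1, DEPTOR and EGR1 lie to the right of 0 and ATF5 and TXNIP to the left.

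ATF4 (ENSG00000128272) had 19473, 18899 and 18435 normalized counts in SW480-45 and 14797, 12745 and 15470 in SW480-NC. All SW480-45 libraries were above all SW480-NC libraries, and the log2 difference was 0.41 (standard error 0.08, adjusted p = 0.0803 from limma), which missed the threshold. ATF5, a related factor whose translation is controlled like that of ATF4, fell by 0.66 on the log2 scale (standard error 0.11, adjusted p = 0.0475 from limma). It had 1927, 1909 and 1544 normalized counts in SW480-45 and 3049, 2646 and 2795 in SW480-NC. CEBPB, a partner of ATF4 and CHOP, was at 524 ± 76.5 (SD, n = 3) and 448 ± 108 (SD, n = 3). Of the 7 genes tested in the list of ATF4 and its bZIP partners, 5 were higher and 2 lower. At an adjusted p under 0.05 in limma 0 rose and 1 fell, and 2 passed an unadjusted p of 0.05 upwards. JDP2 was named after its values were seen, because it had the largest difference of this list in either direction. Its log2 difference was 0.81 (standard error 0.17, adjusted p = 0.0874 from limma and 0.0030 from DESeq2), without overlap. With edgeR no gene of the list passed (ATF5 had an adjusted p of 0.0520, and 0.0510 with TMM scaling in limma), 2 up and 1 down passed the unadjusted threshold, and with DESeq2 2 rose and 1 fell.

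Of the other targets of ATF4, 18 were tested, of which 15 were higher and 3 lower in SW480-45, with a median log2 difference of 0.24. In limma 2 rose and 0 fell at an adjusted p under 0.05, against 0.332% and 0.47% of all features tested. At an unadjusted p under 0.05 in limma 8 passed, all upwards, against 8.1% of all features higher and 8.15% lower. This list, like the others, was chosen with earlier results of these data known, so its counts are descriptions. ASNS, which makes asparagine, had 10919, 10506 and 11429 normalized counts in SW480-45 and 6550.2, 6755 and 7459 in SW480-NC. Its log2 difference was 0.66 (standard error 0.07, adjusted p = 0.0132 from limma). PSAT1, an enzyme of serine synthesis, had 14736, 14245 and 14625 against 10961, 11050.5 and 10468 normalized counts, a log2 difference of 0.43 (standard error 0.05, adjusted p = 0.0243 from limma). For both genes the lines were well apart. With edgeR 2 of the 18 passed the adjusted threshold and with DESeq2 6, all upwards, against 0.272% and 2.51% of features called higher.

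Upstream of ATF4, 13 genes for the eIF2 kinases, eIF2, its exchange factor and its phosphatases were tested. None passed an adjusted p of 0.05 in limma, edgeR or DESeq2, and with limma 2 passed an unadjusted p of 0.05, both downwards. These were EIF2S1, the phosphorylated subunit of eIF2 (log2 difference −0.26, standard error 0.07), and EIF2B1, a subunit of its exchange factor (−0.17, standard error 0.07). EIF2AK4 (GCN2), the kinase that senses amino acid shortage, differed by 0.09 (standard error 0.08), and PPP1R15B, the constitutive paralogue of PPP1R15A, by −0.08 (standard error 0.07).

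Downstream of CHOP, 7 cell death and oxidase genes were tested, and none passed an adjusted p of 0.05 in limma, edgeR or DESeq2, while 1 passed an unadjusted p of 0.05 in limma, downwards. That gene was ERO1A, the endoplasmic reticulum oxidase, at −0.30 (standard error 0.11). BCL2L11 (BIM), a death inducer, was at 873, 661 and 879 normalized counts in SW480-45 and at 328, 938 and 103 in SW480-NC, so that its libraries overlapped and varied widely. Of the paralogues of the members, TRIB1 differed by −0.03 (standard error 0.07), CHAC2 by −0.16 (standard error 0.11) and TRIB2, at no more than 63.3 normalized counts, by 0.84 (standard error 0.32, unadjusted p = 0.0300 from limma). None of the 3 passed an adjusted p of 0.05 in limma, edgeR or DESeq2, and 1 passed the unadjusted threshold.

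Of 29 tested genes of mTORC1, TSC, the Rag GTPases and the GATOR complexes, on which DDIT4 and the sestrins act, 1 rose and 0 fell at an adjusted p under 0.05, and the median log2 difference was 0.03. DEPTOR, an inhibitor that binds mTOR, had 379, 389 and 364 normalized counts in SW480-45 and 196, 174 and 231 in SW480-NC. The lines did not overlap, and the log2 difference was 0.92 (standard error 0.13, adjusted p = 0.0382 from limma). It also passed in edgeR and DESeq2. MTOR itself differed by −0.01 (standard error 0.09), TSC2, through which DDIT4 acts, by 0.07 (standard error 0.08) and FNIP2, a folliculin partner, by −0.31 (standard error 0.08, adjusted p = 0.136 from limma). In glutathione metabolism, beside CHAC1, 12 genes were tested and none passed an adjusted p of 0.05 in limma, edgeR or DESeq2, with 3 up and 2 down at an unadjusted p under 0.05 in limma. OPLAH, which recycles 5-oxoproline, had a log2 difference of 0.90 (standard error 0.33) on 16.7 to 53.3 normalized counts, and GLRX2, a mitochondrial glutaredoxin, of −0.38 (standard error 0.12).

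Other inputs to DDIT4 and the sestrins were compared in the same fit. Of 11 FOXO factors and targets, 1 fell and 0 rose in limma. This was TXNIP, an inhibitor of thioredoxin and of glucose uptake, with 5429, 5515 and 5566 normalized counts in SW480-45 and 7597, 7722 and 8112 in SW480-NC (log2 difference −0.50, standard error 0.06, adjusted p = 0.0168 from limma). BCL6, a repressor in the same list, had a log2 difference of 0.47 (standard error 0.12) that missed the threshold in limma (adjusted p = 0.136) and passed in DESeq2 (adjusted p = 0.0419), where 1 gene of the list rose and 1 fell.

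Of 9 hypoxia response genes, none passed an adjusted p of 0.05 in limma or edgeR, 2 were higher and 1 lower at an unadjusted p under 0.05 in limma, and 1 fell in DESeq2. The glucose transporter SLC2A1 had a log2 difference of −0.39 (standard error 0.07) that missed the threshold in limma (adjusted p = 0.0729). VEGFA, the angiogenic factor, differed by 0.28 (standard error 0.08, adjusted p = 0.140 from limma). Of 4 tested glucocorticoid-responsive genes none passed an adjusted p of 0.05 in limma, edgeR or DESeq2 and 1 passed an unadjusted p of 0.05 in limma, FKBP5, a chaperone of the steroid receptors, at −0.27 (standard error 0.06), while the kinase SGK1 differed by 0.11 (standard error 0.10). Of 12 immediate early genes, whose induction ATF3 and PPP1R15A share, 1 rose and 0 fell at an adjusted p under 0.05 in limma, and 1 rose and 1 fell in DESeq2. EGR1, a zinc finger factor, had 3005, 2922 and 3256 normalized counts in SW480-45 and 1923, 1651 and 1849 in SW480-NC (log2 difference 0.76, standard error 0.09, adjusted p = 0.0159 from limma). GADD45B, a stress sensor of the same family as GADD45A, differed by 0.87 (standard error 0.24, adjusted p = 0.153 from limma). KLF4, a zinc finger factor of epithelial differentiation, was named after its values were seen, because it had the largest difference of this list in either direction. It had 524, 429.9 and 175 normalized counts in SW480-45 and 757, 766 and 627 in SW480-NC, without overlap (log2 difference −1.06, standard error 0.37, adjusted p = 0.226 from limma and 0.0477 from DESeq2).

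**Figure D5:**
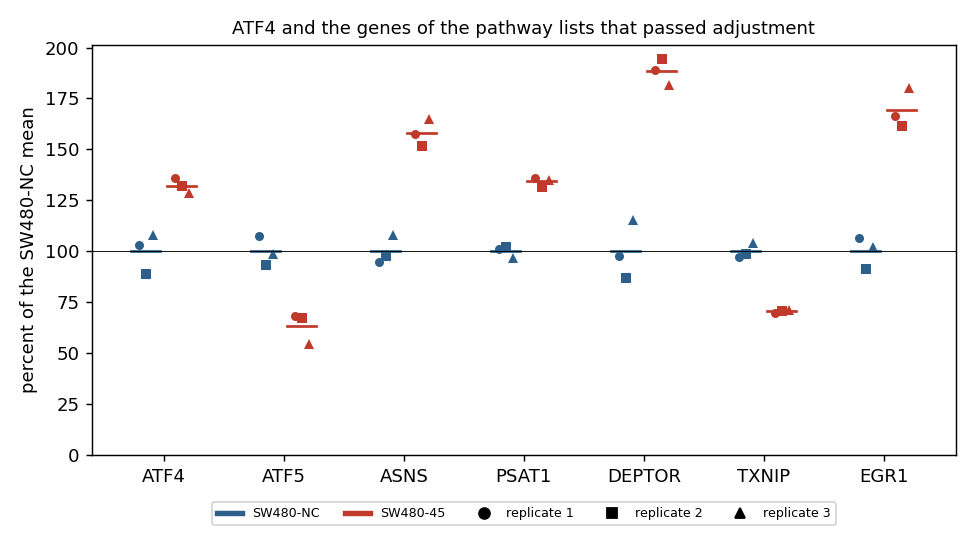
Normalized counts of ATF4 and of the 6 genes of the lists that passed an adjusted p of 0.05 in limma, each as a percentage of its SW480-NC mean, with a symbol for each replicate and a bar for each group mean. No gene shown has overlapping lines, and ATF5 and TXNIP are the ones below 100 in SW480-45.

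With 1 library left out, ASNS passed the adjusted threshold in 3 of 6 fits, PSAT1, DEPTOR, TXNIP and EGR1 in 1 each, without SW480-NC replicate 3, and ATF5 in 0. Without the intensity trend in limma 0 of the 6 passed, and ASNS was then at an adjusted p of 0.115. ATF4 passed in 0 of these fits, with adjusted p from 0.0688 to 0.257 in limma, and it passed in DESeq2 (adjusted p = 0.0115).

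The genes most like DDIT4, NUPR1 and TRIB3 over the 6 libraries were looked up among 9712 other named features averaging 50 or more normalized counts, by Pearson's r of log2(normalized count + 1). For DDIT4 these were NLGN3, GABRP and TRIM11, with r of 0.997 to 0.999. For NUPR1 they were DTX4, NCMAP and ABCG1, and for TRIB3 SARDH, ZBTB4 and TMEM161A. With 6 libraries in 2 groups, high values were not confined to these genes. Of the 9712 features, 385 had r above 0.9 with DDIT4, 447 with NUPR1 and 246 with TRIB3.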

How the data were processed

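RNA of 3 SW480-45 and 3 SW480-NC cultures was sequenced by the study on an Illumina instrument. Per feature and library, the authors deposited a normalized count (a signal, not whole reads), scaled by a single factor in each library. The submitters' processing notes name bcl2fastq, HISAT2, DESeq2 and GRCh38, and the paper names Cuffdiff. Of 59192 features, 33265 are loci from an assembler without an Ensembl identifier. The counting tool, the annotation and the use of strand are not given in the sources used here. Values were whole multiples of one step in each library (100% within 0.01 of a whole number), which gave the reads. All 6 columns matched a sample by name. Replicates of a line were not duplicates (chi-square per feature 21.7 to 26.6).

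The main test, limma 3.58.1 (R 4.3.3) with its intensity trend, used log2(normalized count + 1) of the 21703 features averaging 10 or more, and p-values were adjusted by Benjamini-Hochberg over all of them. Alternatives were a pseudocount of 5, no filter, a mean of at least 50, TMM, median-of-ratios and quantile scaling, no trend, Ensembl features only, the replicate block, each library left out, and edgeR 4.0.16 and DESeq2 1.42.0 on the recovered reads, which called 136 and 767 features. On 21703 simulated features with 200 changed 4-fold, limma recovered 148 with 11 false among 159 calls, edgeR 150 with 13 among 163, and DESeq2 161 with 61 among 222. Symbols and coordinates are from GENCODE 29, and promoters from RefSeq (GRCh38.p14). Figures were drawn with matplotlib 3.10.9.

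The results of 1 list, counted in the totals over all lists, are not reported here. Members and lists were chosen with earlier results of these data known. The text names all members, HPSE, a set of regulators and paralogues, the genes of each list with an adjusted p under 0.05 (at most 4) and, where fewer than 2 passed, those with the smallest p up to 2, besides the 3 features most like DDIT4, NUPR1 and TRIB3. JDP2 and KLF4 were named outside this rule.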

Additional observations from a re-analysis of the deposited data

How the results depend on the processing

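Over the alternatives, the median log2 difference of the 10 members stayed between 0.36 and 0.43, within the spread between libraries. The log2 difference changed sign for SESN1 without SW480-NC replicate 1 (−0.016, with a range up to 0.38 over the libraries left out) and for CHAC1 without SW480-45 replicate 2 (−0.49, with a range up to 0.37), without SW480-NC replicate 1 (−0.28) and under quantile normalization (−0.0030), and it kept its sign for the other 8 members under every alternative. The count of features called was less stable than the values. With limma 174 of 21703 features were called, 72 higher and 102 lower, and 6 of the 140 pathway genes. Without an intensity trend these counts were 11, 3, 8 and 0, and with DESeq2 767, 406, 361 and 17, for which the cause was not tested. DESeq2 gave an adjusted p to 16198 of the features only. DESeq2 had the highest share of false calls (27.5%) on the data simulated with 200 features changed 4-fold. Other sizes or numbers of changes were not simulated, so this share cannot be carried over to the calls here. With 1 library left out and fewer samples, the counts ranged from 29 to 93 for all features, from 13 to 45 for those higher, from 16 to 48 for those lower and from 0 to 6 for the pathway genes, the lowest for all features without SW480-NC replicate 1. With the replicate number as a block, 12 features were called, 3 higher and 9 lower, and 0 pathway genes. Same-numbered libraries did not deviate together over all features (correlations of 0.0025, −0.02 and 0.0074). These values cannot show a tie that is limited to a subset of genes, and such a tie was not tested. CHAC1 (88 reads) and ATF3 (145 reads) had the lowest libraries of the members. Their counting error there, 10.7% and 8.30%, was the largest of the members, but their spread between libraries was larger still.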
